A study of Mus musculus with 12 samples.

Results

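The genes described here encode the mitochondrial respiratory chain and ATP synthase. They were taken from the array's annotation by name: every gene whose symbol begins with Nduf, Uqcr, Cox4, Cox5, Cox6, Cox7, Cox8 or Atp5, together with Sdha, Sdhb, Sdhc, Sdhd and Cycs. This gave 83 of the 11807 genes on the array, each represented by its probe set with the highest mean over all arrays. By complex they were 33 genes of complex I subunits, 4 complex I assembly factors, 4 genes of complex II, 7 of complex III, cytochrome c, 17 of complex IV and 17 of ATP synthase. Ndufa4, which was first assigned to complex I and later to complex IV, is counted with complex IV. Total RNA came from stomach and colon of C57BL/6 mice aged 16 weeks, of 3 Spdef genotypes: wild type (WT), heterozygous (HET) and knockout (KO). Spdef is an ETS transcription factor that acts in mucus-producing cells. No treatment was given, and the labels set the 6 groups apart by tissue and genotype, with 2 arrays each. The labels give neither sex nor whether arrays of a group came from different animals. The tests below therefore measure only how far these arrays spread, which may be technical in the WT and HET groups. The labels do not describe how the Spdef allele was made or which cells it affects.

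The respiratory chain sits in the inner mitochondrial membrane. Complex I takes electrons from NADH and complex II takes them from succinate. Complex III passes them to cytochrome c, complex IV hands them to oxygen, and ATP synthase uses the resulting proton gradient to make ATP. Several complex IV subunits exist in a widespread form and in a form restricted to heart and skeletal muscle, lung, testis or brown fat. In the stomach, the acid-secreting parietal cell is known for its dense mitochondria, while colonocytes burn butyrate made by gut bacteria.

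Levels are given as log2(intensity + 16), quantile normalized over the arrays, and a gene was tested where it reached 6.53, the 40th percentile of the arrays, on at least 2 arrays. Of the 83 genes, 81 passed over all arrays, and 78 lay at or above that level on all 12. The 2 that did not pass were Cox4i2, the lung form of subunit 4, at 4.25 to 5.64, and Cox6a2, the muscle form of subunit 6a, at 4.28 to 6.01. Where a tissue mean lay below 6.53, a difference is given as a lower bound against that level. The number of arrays limits the precision. Spdef itself, in the order WT, HET and KO, read 9.19 and 8.96, 9.06 and 8.94, and 8.86 and 8.63 in stomach, and 10.97 and 8.74, 10.27 and 9.81, and 9.08 and 9.25 in colon. No Spdef difference between genotypes passed the test (limma adjusted p from 0.617 to 1), and the position of its probes relative to the targeted part of the gene is unknown, so the Spdef values check nothing about the labels. Creb3l4, a transcription factor gene from the goblet cell list and named after its values were seen, did differ by genotype. It read 8.54 to 8.66 on the WT and HET arrays of stomach and 5.20 and 5.84 in KO, and 8.11 to 9.30 on the WT and HET arrays of colon and 6.09 and 6.16 in KO (limma adjusted p from 0.0177 to 0.046 in the 4 comparisons with KO). The array labelled colon WT 2 stood apart from the other colon arrays: Fabp6, a bile acid binding protein of the small intestine, read 14.42 in it against 5.84 to 8.73, and Car1, a colonocyte carbonic anhydrase, read 6.65 against 13.50 to 14.01. All 9 listed small intestine genes were highest there among the colon arrays. Colon WT 1 read 8.73 for Fabp6 and 8.10 for Defa31, against 5.84 to 6.61 and 4.14 to 5.13 in colon HET and KO. Apoa1 and Rbp2 were also above HET and KO in colon WT 1, but Apoc3, Mttp, Fgf15, Fabp1 and Slc10a2 were not. Leaving out colon WT 2 therefore does not remove every such difference from colon WT. Xist, the RNA of the inactive X chromosome, read 7.49 in stomach KO 2 and 5.70 in colon KO 2, against 12.34 to 12.86 on the other 10 arrays. In each tissue the KO arrays thus differed in Xist, as arrays from a female and a male would. Within KO, a difference of sex cannot be told apart from other spread. Values without one of these arrays are given where it moved a result.

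Most respiratory chain genes were lower in colon than in stomach. Averaged over the 3 genotypes, 65 of the 81 tested genes were lower in colon, 2 were higher and 14 did not pass the threshold (limma, Benjamini-Hochberg adjusted p under 0.05 over 8453 genes). Of all genes tested in this comparison 48.4% passed, 27% as lower and 21.3% as higher, so a difference between these tissues was common. The median difference, colon minus stomach, was -0.39 for the respiratory chain genes and -0.05 for all genes tested. Bright genes were looked at separately. Of 955 genes with a mean level of 11 or more, 30.6% were lower and 19.4% higher, while 60 of the 72 respiratory chain genes at that level were lower and 1 was higher. In 47 genes (58%) every colon array lay below every stomach array, as it did in 17.6% of all genes. Only Cox6b2 showed the reverse, as did 12.3% of all genes. Without colon WT 2 the counts were 66 lower and 2 higher, with a median of -0.35, and 48 genes had all colon arrays below all stomach arrays, against 19.9% of all genes. These are RNA levels in tissue made of many cell types, and fewer cells of a type cannot be told apart from less RNA per cell.

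**Figure D1:**
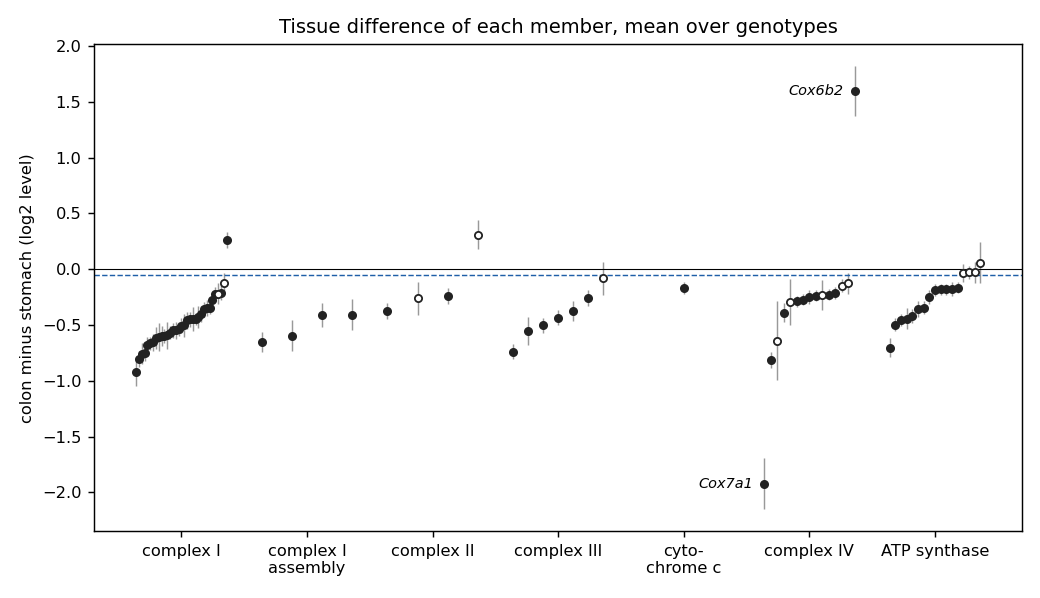
Difference between colon and stomach on the log2 scale for each of the 81 tested genes, averaged over genotypes and grouped by complex. Points are limma estimates, bars are standard errors, filled points passed the threshold, open points did not, and the dashed line is the median of all genes tested (-0.05). Most points lie below 0, with Cox7a1 at -1.92 and Cox6b2 at 1.60 standing apart.

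The size of the difference varied by complex. The median was -0.50 for complex I subunits, -0.50 for the complex I assembly factors, -0.25 for complex II, -0.43 for complex III, -0.25 for complex IV and -0.18 for ATP synthase. In complex I the median gene stood 0.09 to 0.32 above its own mean over all arrays on the stomach arrays, and between -0.43 and -0.08 on the colon arrays. In ATP synthase the 6 stomach medians were 0.11 to 0.18 and the 6 colon medians -0.14 to -0.10. The tissues did not overlap in the medians of complexes I, III, IV or ATP synthase, but they did in complex II, where colon KO 1 stood at 0.14 and stomach KO 1 at 0.06. Differences between complexes were not tested. Probe sets also differed in brightness, for example with a stomach mean of 13.85 for Atp5g3 and 12.52 for Ndufb8. Within a gene, the dimmer tested probe sets gave a larger difference more often than a smaller one. Larger differences were seen for Cox6b1 (-0.47 against -0.29), Cycs (-0.36 against -0.17), Atp5h (-0.52 against -0.36) and Ndufs7 (-0.68 against -0.55). Smaller ones were seen for Atp5d (-0.18 against -0.42), Ndufv2 (-0.13 against -0.35) and Cox5b (-0.15 against -0.23). Whether brightness affected the size of a difference was not tested, so the order of complexes holds for the chosen probe sets only.

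**Figure D2:**
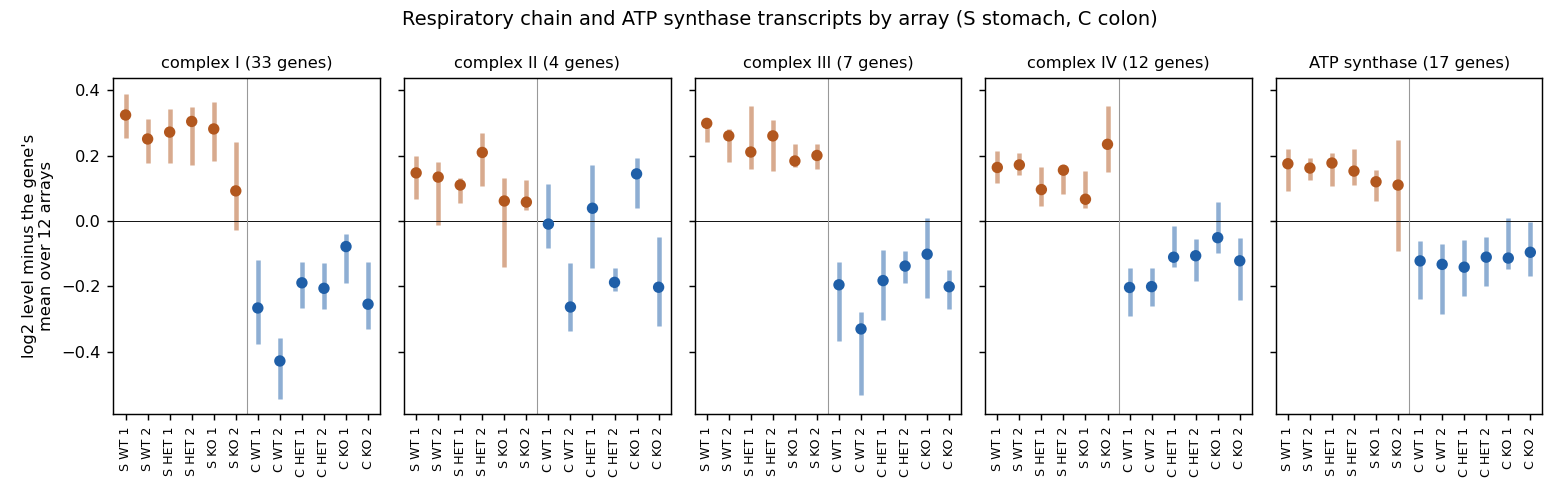
Each gene's log2 level minus its mean over 12 arrays, summarised by complex on each array (S stomach, C colon), for genes at or above the filter level on all arrays. Points are medians over the genes of a complex and bars run from the lower to the upper quartile. Stomach and colon medians are separate for complexes I, III and IV and ATP synthase and overlap for complex II, and colon WT 2 has the lowest complex I median, -0.43.

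Of the 33 complex I subunits, 30 were lower in colon, 1 was higher and 2 (Ndufa2 and Ndufa6) did not pass. Ndufb8, an accessory subunit of the membrane arm, read 12.41, 12.52 and 12.58 (lowest, median and highest of 6 arrays) in stomach and 11.40, 11.74 and 11.94 in colon. The tissues did not overlap, and the difference was -0.80 (SE 0.07, limma adjusted p = 1.46e-05), which is 1.74-fold. Ndufs3, a core subunit of the part that binds ubiquinone, read 12.25, 12.30 and 12.44 in stomach and 11.31, 11.60 and 11.74 in colon, again with no overlap. It was lower by 0.75 as a mean over genotypes (SE 0.07, adjusted p = 2.89e-05). Ndufa10, an accessory subunit of the membrane arm, lay at 12.04 to 12.31 in stomach and 11.12 to 11.75 in colon (difference -0.76, SE 0.09, adjusted p = 0.000142). Ndufv1, which carries the NADH binding site, differed by -0.68 (SE 0.07, adjusted p = 4.12e-05). The gene with the largest value in complex I was Ndufs5-ps, at -0.92 (SE 0.13, adjusted p = 0.00029), with -0.86 on its other probe set. That symbol is annotated as a transcribed pseudogene on chromosome 16, and reads of the parent gene Ndufs5 cannot be told apart from it here. In 25 of the 33 genes every colon array lay below every stomach array.

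Ndufc2, another membrane arm subunit, went the other way. It read 11.49, 11.55 and 11.65 in stomach and 11.64, 11.82 and 12.10 in colon. The colon arrays were higher except that colon WT 2, at 11.64, fell within the stomach range. The difference was 0.26 (SE 0.07, limma adjusted p = 0.0121), and it passed in 21 of 22 alternative settings.

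The 4 complex I assembly factors were all lower in colon, by -0.65 to -0.41. Ndufaf3, which acts early in assembly, read 9.55 to 9.89 in stomach and 8.93 to 9.17 in colon, with no overlap (difference -0.65, SE 0.09, limma adjusted p = 0.000284). Ndufaf5, Ndufaf1 and Ndufaf4 differed by -0.59, -0.41 and -0.41, and in each of these the tissues overlapped. Ndufaf4 ranged from 8.81 in colon WT 2 to 9.88 in colon KO 2, and its call was lost in 10 of the 22 alternatives (adjusted p from 0.00424 to 0.181). The other probe set of Ndufaf4 gave -0.49 (limma adjusted p = 0.00182).

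Complex II also belongs to the tricarboxylic acid cycle, and 2 of its 4 genes were lower in colon and none higher. Sdhc, a membrane anchor, read 12.04, 12.10 and 12.20 in stomach and 11.63, 11.71 and 11.96 in colon, with no overlap (difference -0.37, SE 0.07, limma adjusted p = 0.00251). Sdhb, the iron-sulfur subunit, read 12.80 to 12.89 in stomach and 12.46 to 12.84 in colon, with colon KO 1 inside the stomach range (difference -0.24, SE 0.07, adjusted p = 0.0206). Sdha, the flavoprotein with the succinate site, overlapped between tissues at 12.07 to 12.51 and 11.69 to 12.43 and did not pass (difference -0.26, SE 0.15, adjusted p = 0.169). The other probe set of Sdha gave 0.28 (adjusted p = 0.0186), so the gene's 2 probe sets disagree in sign. Sdhd, the other anchor, read 8.39, 8.84 and 9.15 in stomach and 8.79, 9.14 and 9.31 in colon. Its difference of 0.31 did not pass (SE 0.13, adjusted p = 0.0725), and the tissues overlapped.

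Of the 7 complex III genes, 6 were lower in colon. Uqcr11, a small subunit, read 12.77, 12.90 and 12.97 in stomach and 11.93, 12.14 and 12.34 in colon (difference -0.74, SE 0.07, limma adjusted p = 2.61e-05). Uqcrfs1, the Rieske iron-sulfur protein, lay at 12.81 to 12.94 and 12.15 to 12.52 (difference -0.50, SE 0.07, adjusted p = 0.000236). Uqcrc1, a core subunit, lay at 12.38 to 12.58 and 11.94 to 12.14 (difference -0.43, SE 0.07, adjusted p = 0.000506). None of these 3 overlapped between tissues. Uqcrq, which takes part in ubiquinone binding, overlapped through a single array: colon WT 2 read 12.49 while the other 5 colon arrays read 11.68 to 12.03 and stomach read 12.41 to 12.61. Its difference was -0.55 with that array (adjusted p = 0.00503) and -0.69 without it (adjusted p = 2.03e-05). Uqcr10 was unlike it, with colon WT 2 the lowest colon array at 11.97 against 12.49 to 12.67. Uqcrc2, the other core subunit, did not pass (difference -0.08, adjusted p = 0.678). Cycs, cytochrome c itself, lay at 12.91 to 13.14 in stomach and 12.83 to 13.03 in colon. Its difference of -0.17 was small (SE 0.05, adjusted p = 0.0275), the tissues overlapped, and on this probe set it passed in 11 of the 22 alternatives. The other probe set of Cycs gave -0.36 (limma adjusted p = 0.0015).

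Complex IV held both of the largest differences, and both were in restricted forms of a subunit. Cox7a1, the heart and skeletal muscle form of subunit 7a, read 11.82 and 11.53 in stomach WT, 11.78 and 11.62 in stomach HET and 11.52 and 11.24 in stomach KO. In colon it read 9.40 and 10.85 in WT, 9.30 and 9.53 in HET and 9.75 and 9.15 in KO. All colon arrays lay below all stomach arrays, and colon WT 2 stood alone at 10.85. The mean was 11.58 ± 0.21 (SD, n = 6) in stomach and 9.66 ± 0.62 (SD, n = 6) in colon, a 3.79-fold difference (-1.92, SE 0.23, limma adjusted p = 0.000122). Without colon WT 2 it was -2.16 (adjusted p = 9.06e-07). Its widespread partner Cox7a2 lay at 13.81 to 13.97 in stomach and 13.56 to 13.92 in colon, a difference of -0.21 (SE 0.05, adjusted p = 0.00805).

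Cox6b2, the testis form of subunit 6b, was the only gene of the set with every colon array above every stomach array. It read 5.67 to 6.48 in stomach, below the filter level on all 6 arrays. In colon it read 7.53 and 8.62 in WT, 7.62 and 7.66 in HET and 7.62 and 7.03 in KO. The fitted difference was 1.60 (SE 0.22, limma adjusted p = 0.000336), and against the filter level Cox6b2 was higher in colon by at least 1.15. It entered the test through its colon arrays alone, so neither the p nor the separation of the arrays is independent evidence. Colon WT 2 was again the array farthest from the rest. Its partner Cox6b1 moved the other way, at 13.86 to 13.98 in stomach and 13.50 to 13.83 in colon (difference -0.29, SE 0.05, adjusted p = 0.000828).

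The other widespread complex IV genes were lower by smaller amounts. Cox8a differed by -0.39, Cox4i1, the usual form of subunit 4, by -0.27, Cox6c by -0.25, Cox6a1 by -0.24 and Cox5b by -0.23, all past the threshold. Ndufa4 was the exception in size, at 13.32, 13.42 and 13.46 in stomach and 12.21, 12.58 and 12.97 in colon. Its tissues did not overlap (difference -0.81, SE 0.07, limma adjusted p = 1.99e-05). Cox5a, Cox7c, Cox7a2l, which takes part in supercomplex assembly, Cox8b and Cox8c did not pass. For Cox5a this holds on the chosen probe set only, at -0.15. Its other probe sets gave -0.24 (limma adjusted p = 0.0183) and -0.24 (adjusted p = 0.0237). In all, 9 of the 15 tested genes were lower and 1 was higher.

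**Figure D3:**
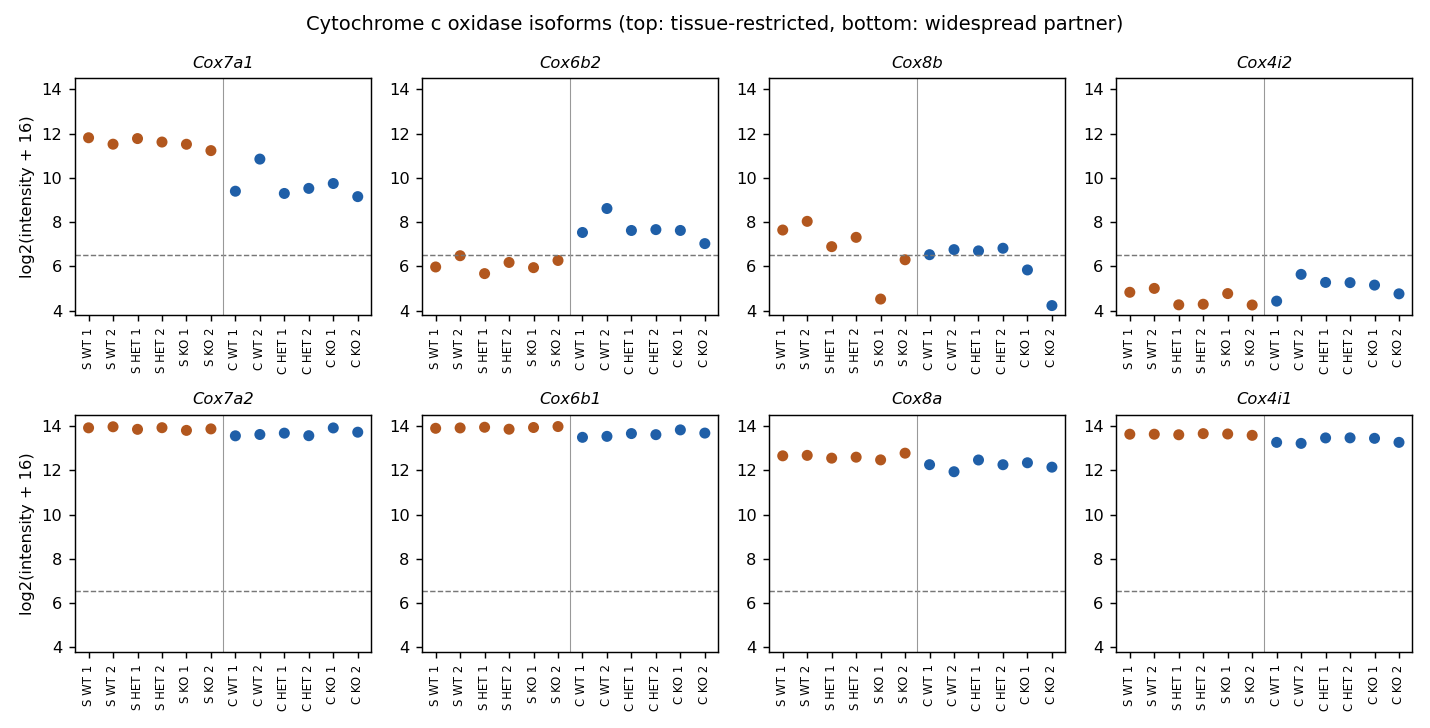
Log2 level on each array (S stomach, C colon) of 4 restricted complex IV subunit forms (top) and of the widespread form of the same subunit (bottom). The dashed line is the filter level of 6.53. Cox7a1 is high in stomach and Cox6b2 lies above the line in colon alone, while the widespread forms sit between 11.94 and 13.98 on all arrays and Cox4i2 stays below the line.

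ATP synthase had small differences on the chosen probe sets, with 13 of 17 genes lower and none higher. The c-ring, which turns as protons pass, is encoded by 3 genes for the same mature protein, and these were unlike each other. Atp5g1 read 12.79, 12.89 and 12.99 in stomach and 11.81, 12.24 and 12.32 in colon, with no overlap (difference -0.70, SE 0.09, limma adjusted p = 0.000132). Atp5g3 differed by -0.18 (SE 0.05, adjusted p = 0.0161). Atp5g2 did not pass at -0.03 (95% interval -0.23 to 0.18, adjusted p = 0.821). Atp5k and Atp5l, membrane subunits e and g, differed by -0.50 (SE 0.06, adjusted p = 0.000113) and -0.46 (SE 0.05, adjusted p = 9.92e-05). The tissues overlapped in neither. Atp5c1, the central stalk subunit gamma, differed by -0.44 (SE 0.09, adjusted p = 0.00336), while the catalytic subunits Atp5b and Atp5a1 differed by -0.35 and -0.18, both past the threshold. Atp5pb, Atp5mpl and Atp5md did not pass. Of Atp5md, a small subunit that also goes by DAPIT, 5 stomach arrays read 13.31 to 13.44 and stomach KO 2 read 11.96.

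Promoter sequence was examined for letters of factors known to act on respiratory genes, in RefSeq promoters of build GRCm38.p6 running from 250 bases before to 50 after the start site. Of the 83 genes, 68 had an entry. The NRF1 motif, in capitals in the first 3 sequences below and the same on both strands, was in 7 (10.3%), against 1.07% of 27025 genes with an entry. The YY1 motif was in 5 (7.35%, against 0.995%), ERR letters TCAAGGTCA in 2 (2.94%, against 0.466%) and GABP letters CCGGAAGT in 4 (5.88%, against 4.31%), searched on both strands. The NRF1 motif was in 6 of the 56 genes that were lower in colon and in 1 of the 12 others. The 7 were Ndufa11, Ndufaf4, Ndufaf5, Uqcrc1, Cox6a1, Atp5g2 and Atp5k. Bases -100 to -1 of 3 of them follow, because Ndufa11 (difference -0.66) and Atp5k (-0.50) were lower in colon while Atp5g2 (-0.03) did not pass. They lie at chr17:56717662-56717761 (plus strand), chr5:108434400-108434499 (minus strand) and chr15:102671048-102671147 (minus strand), and each is written 5′ to 3′ on the gene's strand.
Ndufa11: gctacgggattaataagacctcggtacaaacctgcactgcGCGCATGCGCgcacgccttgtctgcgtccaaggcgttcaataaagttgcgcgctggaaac
Atp5k: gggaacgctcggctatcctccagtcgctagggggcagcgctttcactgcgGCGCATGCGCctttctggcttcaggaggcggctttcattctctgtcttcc
Atp5g2: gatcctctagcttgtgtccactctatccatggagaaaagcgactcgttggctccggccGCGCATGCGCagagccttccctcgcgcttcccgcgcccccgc
The motif begins at bases -60, -50 and -42 from the start site, in that order. The same window of the subunit 7a pair follows, at chr7:30184071-30184170 (plus strand) and chr9:79759854-79759953 (minus strand), because the muscle form had the largest difference of the set and its widespread partner a small one. Neither stretch holds any of the 4 motifs, so no letters are in capitals.
Cox7a1: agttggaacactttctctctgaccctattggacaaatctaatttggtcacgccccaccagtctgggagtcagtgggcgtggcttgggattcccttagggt
Cox7a2: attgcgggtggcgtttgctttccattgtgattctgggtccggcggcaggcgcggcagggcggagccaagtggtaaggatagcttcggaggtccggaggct
Over the 300 bases, Cox7a1 had 7 CG pairs and Cox7a2 had 20, which was also the median of the 68 genes. The median of all genes was 7. The NRF1 motif itself holds CG pairs, and the motif shares above were not matched for CG pairs. The lowest counts among the 68 were 2 in Cox8b, 7 in Cox7a1, 8 in Ndufc2 and 10 in Cox6b2. Where this list ends was set after the values were seen. It mixes genes higher in colon (Ndufc2 and Cox6b2), lower (Cox7a1) and not past the threshold (Cox8b), so nothing is drawn from it.

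The tissue difference was then taken within each genotype, which asks whether it held without Spdef. In WT, 51 of 81 genes were lower in colon and 1 higher, where 16.2% of all genes were lower and 10.9% higher (27.1% in all). In HET it was 34 lower and 1 higher, where 11.9% of all genes were lower and 10.2% higher (22%). In KO it was 21 lower and 2 higher, where 12.3% of all genes were lower and 10.4% higher (22.7%). The median differences were -0.50 in WT, -0.36 in HET and -0.27 in KO, against -0.08, -0.05 and -0.04 for all genes. The counts rest on 2 arrays against 2 and moved with single arrays: WT without stomach WT 1 gave 22 genes, without stomach WT 2 gave 33, and without colon WT 2 gave 41 with a median of -0.42. For HET, the counts were 11 without either stomach HET 2 or colon HET 1, 12 without colon HET 2, 15 without stomach HET 1 and 23 without stomach WT 1. In KO they were 10 without colon KO 2, 11 without stomach KO 2 and 13 without stomach KO 1. The sign held more evenly than the calls, with 78, 76 and 73 of the 81 genes lower in colon in WT, HET and KO. Since the genes share the same arrays, these signs are not independent of each other.

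**Figure D4:**
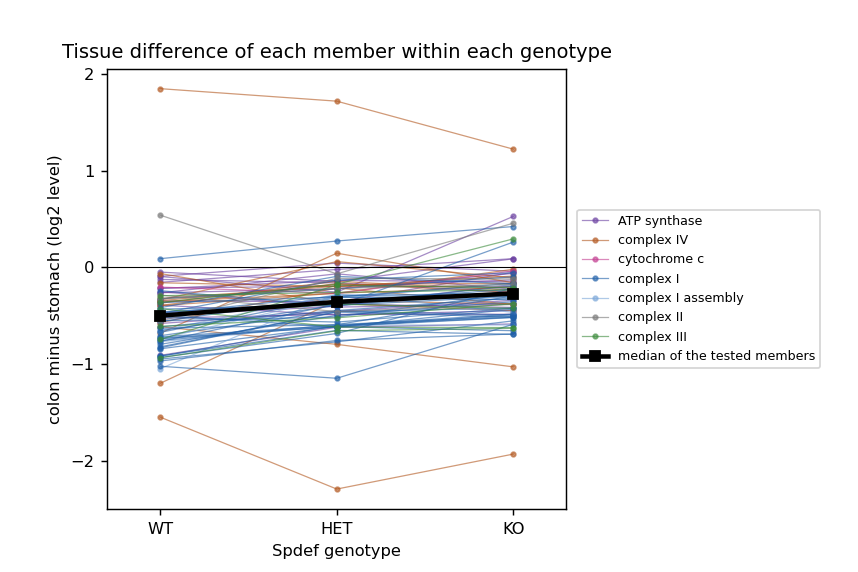
Colon minus stomach difference on the log2 scale for each of the 81 tested genes within WT, HET and KO mice, each from 2 colon and 2 stomach arrays. Thin lines join the values of 1 gene and are coloured by complex, and the thick line is the median, -0.50, -0.36 and -0.27.

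Whether the genotype difference itself differed between tissues was tested by the interaction. For KO against WT, 71 of 80 genes had a positive value, with a median of 0.23 against 0.05 for all genes, and no gene passed (limma, 0 of 80 genes here, 0% of 7374 genes in all, 8 of the 80 with an unadjusted p under 0.05). All 33 complex I genes were positive, with a median of 0.30, and the ATP synthase median was 0.08. The genes share arrays, so their signs are not independent of each other. Without colon WT 2 the median over all 79 tested was 0.17, with 70 positive and none past the threshold. For KO against HET, the median was 0.07, with 54 of 80 positive, and no gene passed (0% of all genes, 1 with an unadjusted p under 0.05). Single arrays moved both medians. Without stomach KO 2 they were 0.19 (68 of 80 positive) for KO against WT and 0.04 (50 of 80) for KO against HET. Without colon KO 1 that for KO against HET was 0.01 (44 of 79), and without colon KO 2 it was 0.13 (61 of 80). Without colon WT 1, which leaves colon WT 2 as the only colon WT array, Uqcr10 passed for KO against WT (0.78, adjusted p = 0.0194). Without stomach KO 1, Atp5md passed for KO against HET (1.45, adjusted p = 0.0441).

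In stomach no respiratory chain gene changed with genotype past the threshold. For KO against WT, 0 of 80 genes passed (0.0127% of 7855 genes did), and 1 had an unadjusted p under 0.05. For KO against HET it was 0 (0.0127% of all genes) with 3 at that unadjusted level, and for HET against WT 0 (0%) with none. The KO and WT values lay close together: the median difference was -0.05, with 63 genes lower in KO and 17 higher, -0.15 without normalization between arrays and -0.04 without stomach KO 2. Stomach KO 2 was the lowest of the 6 stomach arrays for 37 of the 78 genes above the filter level throughout, and stomach WT 1 was the highest for 30. Atp5md fell by 1.37 against WT (adjusted p = 0.0103) and by 1.42 against HET (adjusted p = 0.00805) only without stomach KO 1, where stomach KO 2 is the single KO array. With both arrays the values were -0.71 (SE 0.32) and -0.75 (SE 0.32), and neither passed. The comparisons of KO with WT and with HET share the KO arrays. Squamous epithelium genes, which mark the forestomach, were at different levels in these groups, though 0 of the 7 tested passed in any stomach genotype comparison by limma. Of 8 listed, 7 reached the filter level in stomach, and their summed level was 11.54 to 12.25 in WT, 9.57 to 13.70 in HET and 7.06 to 7.44 in KO. Their part in the stomach values was not tested.

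In colon the respiratory chain genes also did not pass in any genotype comparison. For KO against WT, 0 of 81 passed (0.0505% of 7913 genes did) and 14 had an unadjusted p under 0.05. For HET against WT it was 0 (0.0253%) with 9, and for KO against HET 0 (0.0253%) with 1. The median difference of KO against WT was 0.14, with 66 genes higher, and that of HET against WT 0.12, with 61 higher. Both depended on colon WT 2 and on the scaling. Without colon WT 2 they were 0.07 and 0.06, and without colon KO 2 the KO median was 0.19. On the deposited scale they were 0.05, with 45 of 81 higher, and -0.02, and with arrays shifted to the same median 0.04 and -0.06, so the HET direction turned. The smallest p belonged to Ndufc1, a small complex I subunit, at 11.99 and 12.03 in WT, 12.45 and 12.47 in HET, and 12.54 and 12.42 in KO. Both WT arrays lay below the 4 others. The KO minus WT difference was 0.47 (SE 0.10, limma adjusted p = 0.308) and that of HET 0.45 (SE 0.10, adjusted p = 0.367), 2 comparisons that share the WT arrays. Ndufa4 read 12.69 and 12.97 in WT, 12.60 and 12.56 in HET and 12.51 and 12.21 in KO, with a KO minus WT difference of -0.47 (SE 0.13, adjusted p = 0.318).

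Colon WT 2 was the lowest of the 6 colon arrays for 44 of 78 genes, and colon KO 1 the highest for 33. With colon WT 2 as the only WT array, 8 genes passed for KO against WT and 6 for HET against WT. The 8 were Uqcr10, Atp5g1, Ndufa1, Ndufc1 and Ndufaf4, higher in KO, and Cox7a1, Uqcrq and Ndufa4, lower in KO, with Cox7a1 at -1.41 (adjusted p = 0.00775). In that setting 12.5% of all genes passed for KO against WT and 13.8% for HET against WT. With colon WT 1 as the only WT array, no respiratory chain gene passed in either.

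Cox8b was below the filter level in KO in both tissues, with no call, and fat cell genes read lower on the stomach KO arrays and on colon KO 2, also with no call (limma, 0 of 4 tested adipocyte genes in either tissue and 0 of 2 brown fat genes in stomach). Cox8b is the form of subunit 8 found in heart, skeletal muscle and brown fat of mice. In stomach it read 7.64 and 8.03 in WT, 6.89 and 7.31 in HET and 4.52 and 6.30 in KO. In colon it read 6.53 and 6.76 in WT, 6.70 and 6.82 in HET and 5.84 and 4.22 in KO. In each tissue both KO arrays were below the other 4 and below the filter level. The fitted KO minus WT difference was -2.43 in stomach (SE 0.61, limma adjusted p = 0.684) and -1.61 in colon (SE 0.62, adjusted p = 0.421), so neither passed. Against the filter level the observed stomach KO mean of 5.41 ± 1.26 (SD, n = 2) lay below the WT mean by at least 1.31, and the colon KO mean of 5.03 ± 1.14 (SD, n = 2) by at least 0.11. Both bounds describe means of 2 arrays and are not tested differences. In each tissue Cox8b reached the filter level only on WT and HET arrays.

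The stomach values of Cox8b went beside those of Ucp1, the uncoupling protein of brown fat, at 7.08 and 7.85 in WT, 7.07 and 7.05 in HET and 4.53 and 5.93 in KO. Cidea, a lipid droplet protein of brown fat, read 7.41 and 7.60, 7.52 and 7.51, and 6.55 and 6.79. Of 5 listed brown fat genes 4 were matched and 2, these same 2, reached the filter level in stomach, while none did in colon. Their summed level was 8.44 to 8.83 in stomach WT, 8.46 to 8.57 in HET and 7.03 to 7.74 in KO, and 6.09 to 7.01 in colon. The 4 matched adipocyte genes summed to 12.74 to 12.91 in stomach WT, 12.19 to 12.49 in HET and 11.79 to 11.97 in KO. Their colon sums were 13.42 to 13.61, 13.19 to 13.73 and 10.74 to 12.84. The lowest adipocyte values came from colon KO 2. There the fat hormone Adipoq read 7.34, where the remaining colon arrays read 10.81 to 11.75, and this was also the lowest colon array for Cox8b. The part of fat tissue in the Cox8b values was not tested.

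**Figure D5:**
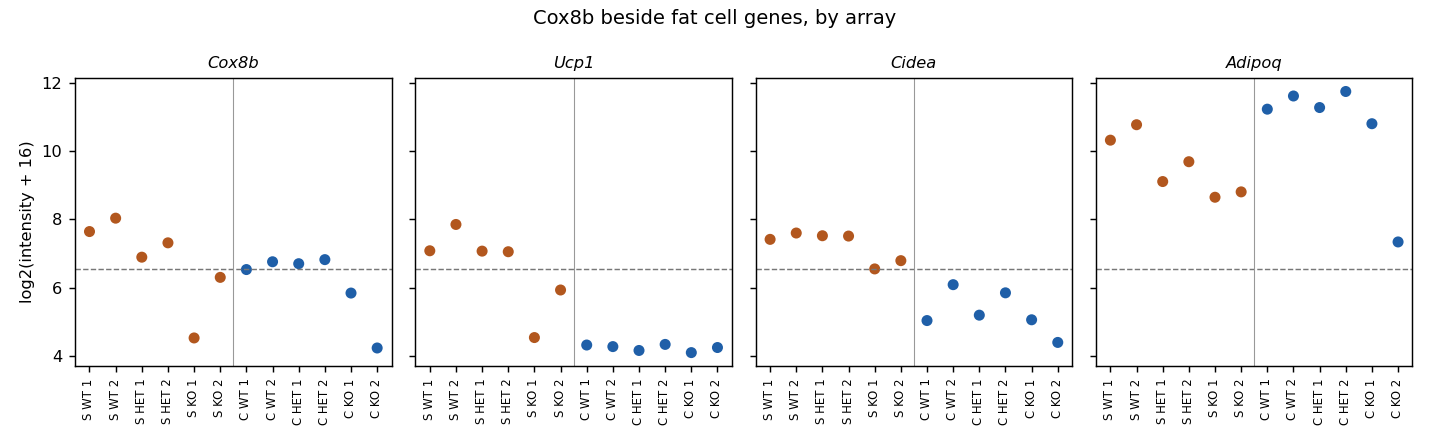
Log2 level on each array (S stomach, C colon) of Cox8b and of 3 fat cell genes, with the filter level of 6.53 as a dashed line. Cox8b, Ucp1 and Cidea are lowest in stomach KO among the stomach arrays, Ucp1 stays at or below 4.33 in colon, and Adipoq and Cox8b are lowest in colon KO 2 among the colon arrays.

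Genes around the respiratory chain were followed in lists of the same pathway, to be read against the 27% of all genes that were lower in colon and the 21.3% that were higher. Of the 15 tested genes of pyruvate entry and the tricarboxylic acid cycle, which supply the chain's electrons, 12 were lower in colon and none higher, with a median of -0.55. The largest was Idh2, mitochondrial isocitrate dehydrogenase, at -1.41 (adjusted p = 3.34e-06), followed by Ogdh at -0.72. Cytochrome c1 and complex III assembly had 4 of 5 lower, led by Uqcc1 (-1.22) and Bcs1l (-0.83), both assembly factors. Of 12 complex IV assembly genes 6 were lower and 1 higher, with the copper chaperones Cox17 at -1.22 and Cox19 at -0.71. Of 6 assembly genes of ATP synthase and complex II, Tmem70 was lower (-0.48) and Oxa1l higher (0.40).

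The lists were not all of 1 direction. Among 14 tested regulators of mitochondrial biogenesis 5 were lower and 1 higher, a share of lower genes near that of all genes. Esrrg and Esrrb, estrogen-related receptors, were lower in colon by at least 0.78 and 0.55, and Ppara, a receptor that controls fatty acid oxidation genes, was higher by at least 0.87. Gabpa, Gabpb1, Tfam and Esrra did not pass. Of 15 fatty acid oxidation genes 6 were lower and 2 higher, the latter being the carnitine carrier Slc25a20 (1.23) and the short chain dehydrogenase Acads (1.07). Of 8 genes of transport, the outer membrane and creatine kinase, 3 were lower and 2 higher, with the muscle and heart ADP/ATP carrier Slc25a4 at -1.07 and the channel Vdac3 at 1.09. In glycolysis 7 of 14 were higher and 3 lower, with a median of 0.08. Ldhb, the lactate dehydrogenase form typical of heart, was lower by 4.32, and Eno3, the muscle enolase, was higher by at least 2.25. For these 8 lists no gene passed in any genotype comparison by limma.

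Cell type markers moved with the tissue. Of 11 matched parietal cell genes 10 were lower in colon, and the summed level of all 11 was 15.43 to 15.70 on the stomach arrays and 10.55 to 13.46 on the colon arrays. The other gene, Aqp4, did not pass (difference 0.32). It read 7.71 in colon WT 2 and 11.24 to 13.21 on the remaining colon arrays, so it weighs heavily in most colon sums. The proton pump subunits Atp4a and Atp4b were below the filter level in colon and lower there by at least 7.29 and 7.64. All 6 surface mucous genes and all 5 tested chief cell genes were also lower, and all 8 tested colonocyte genes were higher. Of 7 smooth muscle genes 1 was higher in colon and none lower, with a median difference of 0.45. Their sums were 14.57 to 14.76 in stomach and 14.39 to 15.47 in colon, where colon WT 2 gave the 14.39 and the other 5 arrays lay above all stomach arrays. Of striated muscle genes, 6 of 13 reached the filter level, 2 were lower in colon and 2 higher, and the sums were 9.22 to 10.96 and 8.98 to 10.13. The part of cell type makeup in the tissue difference was not tested. Within stomach the parietal sums were 15.53 to 15.70 in WT, 15.48 to 15.63 in HET and 15.43 to 15.56 in KO.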

How the data were processed

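RNA of 12 samples in 6 groups was measured on Affymetrix mouse arrays. The authors deposited a linear intensity per probe set, already summarised and scaled: its trimmed mean was 500.07 to 500.09 on each array. Per the submitters' processing notes 9 arrays were processed by MAS5, while RMA is named, without a version, for colon WT 1 and both stomach KO arrays, although all 12 columns are linear with nearly the same trimmed mean. Whether these notes are right could not be settled, and any difference of processing cannot be told apart from the stomach KO genotype. Of 22716 probe sets 90 were controls, and 18003 of the other 22626 had 1 gene, 287 several and 4336 none. The 83 genes had 136 probe sets, and the rule gave the same 83 under current symbols. Of their 53 other probe sets, some of Cox5b and Uqcrq did not pass the filter and were not compared. Among the rest, 2 (of Sdha and Ndufs8) had the opposite sign between tissues.

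Values were taken as log2(intensity + 16), quantile normalized over the 12 arrays, and fitted with 1 mean per group in limma 3.58.1 (R 4.3.3) with an intensity trend, 6 residual degrees of freedom and 3.29 to 3.46 prior ones. The threshold was a Benjamini-Hochberg adjusted p of 0.05 over all tested genes. Within a tissue a gene had to reach the filter level on 2 of its 6 arrays. The fit was also run on simulated data with independent noise for each gene. That simulation held no outlying arrays and no genes that move together, so it does not speak to either. Levels are not compared between genes, since probes differ.

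The genes, lists and tests were chosen with earlier results of these data known. Named genes were up to 4 per complex with the largest called tissue difference, the Sdh genes, Cycs, the restricted isoforms with their partners, and the 3 smallest p of each genotype comparison. Ndufc2, Ndufv1, Uqcrc2 and the unchanged ATP synthase genes were named after their values were seen, as were members counted under a single setting. Of the pathway lists up to 2 genes each were named by size, others after their values were seen. Alternatives covered normalization, offset, filter, trend, probe set, replicate block, fits of 1 tissue and each array left out. Leaving out colon WT 2 and colon KO 2 together was added after the data were seen. Plots used matplotlib 3.10.9 in Python 3.11.15. Protein sequences were not used here.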

Additional observations from a re-analysis of the deposited data

Results flagged for a closer look

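In 11 of 79 sets of 6 arrays of 1 tissue, a single array lay apart from the rest by Dixon's criterion, its gap to the nearest other array being large for the range. The criterion flags about 1 in 20 sets where all 6 values are drawn alike. These sets mix genotypes, share arrays and include genes named for a small p, so the count cannot be set against that rate. The array was colon WT 2 in 5 sets and stomach KO 2 in another 5.

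Colon WT 2 read 10.85 for Cox7a1 (9.15 to 9.75 on the other colon arrays) and 13.32 for Atp5md (13.09 to 13.18), both above the rest. It read 11.81 for Atp5g1 (12.20 to 12.32), 11.31 for Ndufs3 (11.58 to 11.74) and 11.97 for Uqcr10 (12.49 to 12.67), all below the rest.

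Stomach KO 2 read 11.96 for Atp5md (13.31 to 13.44 on the other stomach arrays), 12.91 for Cycs (13.08 to 13.14), 11.91 for Ndufa2 (12.35 to 12.55) and 11.22 for Ndufs5-ps (11.96 to 12.09), all below the rest. Atp5k read 13.42 there, above the rest (13.14 to 13.23). Sdhd read 8.79 in colon HET 2, against 9.13 to 9.31 on the other colon arrays.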

How the results depend on the processing

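Over 22 alternatives to the tissue comparison that keep the same probe sets, 76 of 81 genes kept their sign and 47 of the 67 called genes were called throughout. The exceptions in sign were Uqcrc2, Atp5g2, Atp5md, Atp5mpl and Atp5pb, none of which passed as reported. The count lower in colon was 47 in HET and KO arrays only, 55 without an intensity trend and 62 to 67 in the other settings with all arrays. Leaving out 1 array at a time it was 56 to 66, and the count higher was 2 to 3. With arrays shifted to the same median the count higher was 1. Without the intensity trend the counts were 20 in HET and 15 in KO. Leaving out 1 array at a time they were 22 to 55 in WT, 11 to 44 in HET and 10 to 34 in KO. With only the arrays noted as MAS5, HET gave 46. Leaving out colon WT 2 and colon KO 2 together, an alternative added after the data were seen, gave 64 lower and 2 higher.

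No genotype comparison or interaction gave a call in any setting with all its arrays. Leaving out 1 array at a time the counts were 0 to 1 for KO against WT and for KO against HET in stomach, 0 to 8 for KO against WT and 0 to 6 for HET against WT in colon, and 0 to 1 for either interaction. A lone array was taken to vary like the other groups.

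Signs turned for Cox6b1 in colon KO against WT (-0.11 on the deposited scale and -0.11 with shifted medians), for Cox7a2 without probe sets that may match several transcripts (-0.0145 for colon KO against HET and -0.0104 for that interaction) and for Sdha between tissues with every probe set tested (0.28). The cause was not tested.

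With the replicate block, 66 genes were lower and 2 higher, and 51, 32 and 23 passed in WT, HET and KO; it changed no count by over 1.5 times. Same-numbered arrays correlated from -0.32 to 0.29 in their deviations, so the numbers were not taken as pairs. The number of arrays and signal near 6.53 limit what dim genes can show.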
